A study of Mus musculus with 8 samples.

Results

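The genes described here are 10 genes of the postsynaptic side of the neuromuscular junction, out of 24341 genes listed for each library: the acetylcholine receptor subunits Chrna1, Chrnb1, Chrnd and Chrne, the organizers Musk, Lrp4, Dok7 and Rapsn, the enzyme gene Ache and the secreted factor gene Fgfbp1. They were taken by gene symbol and chosen by a known role at the junction together with their FPKM in Carm1 knockout against control muscle, which was higher for receptor subunits and lower for Fgfbp1. The difference between the genotypes is therefore a description of these genes and carries no test. Each symbol matched 1 row, and all 10 genes passed the filter on low values. Fgfbp1 passed it through the 4 controls alone, since every knockout stood under 1 FPKM.

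RNA was sequenced from the tibialis anterior, which lifts the foot and is built mostly of fast fibres, of 8 mice of 12 weeks on chow, all described as male. Carm1 encodes an arginine methyltransferase that modifies histones and other proteins. The 4 knockout animals (Carm1 skm-/-) combined floxed Carm1 with HSAcre Tg/0, which expresses Cre recombinase in muscle fibres from a skeletal actin promoter, and the 4 control animals (Carm1 skm+/+) were HSAcre 0/0 with floxed Carm1. Cre and loss of Carm1 cannot be told apart in this design, and cells other than muscle fibres keep Carm1. Values are FPKM, fragments normalised to transcript length and library total, divided by a factor per library (scaled FPKM).

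At the junction a motor nerve terminal releases acetylcholine onto a small patch of the muscle fibre. The receptor there is a pentamer of α, β, δ and ε subunits, with γ in place of ε in fetal or denervated muscle. Agrin from the nerve binds Lrp4, which activates the kinase Musk with the adaptor Dok7, and Rapsn then anchors the receptors in clusters. Nuclei under the synapse transcribe these genes strongly, while nerve activity represses the receptor genes in the rest of the fibre, and this repression is lost on denervation.

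Carm1 itself averaged 15.4 ± 2.57 scaled FPKM in knockouts and 30.5 ± 4.82 in controls (SD, n = 4 each), with no overlap (log2 difference -0.94, 2-sided exact permutation p = 0.0286, the smallest that 70 assignments allow). Read depth is not given. Summed FPKM lay between 604428 and 681042, and the steps between the lowest values put each library at 80.4% or more of the depth of the deepest. Against the stated sex, knockout 2, knockout 4 and control 1 held 22.9, 20.5 and 19.6 FPKM of Xist, the RNA of the inactive X chromosome, and almost no Eif2s3y, a Y-linked gene. The other 5 libraries held at most 0.0662 FPKM of Xist. Some defining muscle fibre genes (Acta1, Ckm, Myh4 and Tnnt3) are listed at 0 in part of the libraries with a failed or low-data status. Mylpf, the fast myosin light chain, was abundant, with 17792 ± 2550 scaled FPKM in knockouts and 27007 ± 5842 in controls (SD, n = 4 each). Knockout 1 stands apart in the junction genes, and results are given with and without it. In RNA of whole muscle, fewer cells of a type and less RNA per cell cannot be told apart.

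Among the 10 genes, Chrnb1 and Chrnd were higher in every knockout than in every control and Fgfbp1 was lower in every knockout, while the groups overlapped for the other 7. Of all 11096 genes tested, 4.67% were higher and 3.64% lower without overlap, 8.31% together, and nothing is read from these shares because the same difference chose the genes. Without knockout 1 the same 3 genes showed no overlap, with 5.69% of all genes higher and 5% lower in that way. The log2 difference was positive for 9 of the 10 genes, against 49.5% of all genes. In limma over all genes 0 of the 10 passed, against 0.36% of all genes (0.198% higher and 0.162% lower), which is likewise a description. With presence of Xist as a covariate 1 of the 10, Fgfbp1, passed as lower, against 2.01% of all genes in either direction and 0.919% lower. That pass is a description too and no support, since the fall of Fgfbp1 was part of the choice. Knockout 1 was the highest of the 8 libraries for 7 of the 10 genes, against 15.7% of all genes. This count and that of positive differences are descriptions too, since a rise in knockouts was part of the choice. Promoters are shown before the values for the genes whose levels are described most fully and whose windows were in the RefSeq table. Windows were found for 7 of the 10 genes (Chrna1, Chrnb1, Chrne, Musk, Dok7, Ache and Fgfbp1), and the 4 below run from 250 bases before to 50 bases after the annotated start, 5′ to 3′ on the gene's strand (RefSeq, GRCm38.p6, the assembly of mm10). Capitals mark matches to the E-box CANNTG, the motif read by the myogenic factors such as Myod1 and Myog, and to the N-box CCGGAA, the motif read by the Ets factor Gabpa, each searched on both strands.

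Chrna1: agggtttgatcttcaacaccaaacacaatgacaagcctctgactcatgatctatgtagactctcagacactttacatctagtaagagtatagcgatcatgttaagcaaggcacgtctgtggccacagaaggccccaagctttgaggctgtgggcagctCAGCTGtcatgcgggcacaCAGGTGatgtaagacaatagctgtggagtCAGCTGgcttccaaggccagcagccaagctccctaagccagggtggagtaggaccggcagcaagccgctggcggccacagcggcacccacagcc
Chrnb1: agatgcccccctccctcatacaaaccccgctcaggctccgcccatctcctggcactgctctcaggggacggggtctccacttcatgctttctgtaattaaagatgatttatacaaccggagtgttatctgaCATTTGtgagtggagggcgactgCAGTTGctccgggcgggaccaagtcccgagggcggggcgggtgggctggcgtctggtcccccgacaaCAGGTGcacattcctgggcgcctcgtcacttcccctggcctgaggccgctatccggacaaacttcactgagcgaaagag
Chrne: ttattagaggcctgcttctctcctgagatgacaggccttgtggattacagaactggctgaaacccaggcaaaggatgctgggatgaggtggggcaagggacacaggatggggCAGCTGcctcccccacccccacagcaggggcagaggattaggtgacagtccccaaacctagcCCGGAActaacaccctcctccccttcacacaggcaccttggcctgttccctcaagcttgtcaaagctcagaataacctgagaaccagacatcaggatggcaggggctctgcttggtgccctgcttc
Fgfbp1: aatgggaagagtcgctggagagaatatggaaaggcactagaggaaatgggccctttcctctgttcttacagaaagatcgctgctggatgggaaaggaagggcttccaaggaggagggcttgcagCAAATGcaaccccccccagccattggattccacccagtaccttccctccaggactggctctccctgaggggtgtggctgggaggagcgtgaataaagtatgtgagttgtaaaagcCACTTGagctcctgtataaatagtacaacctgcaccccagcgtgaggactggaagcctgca

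These windows lie at chr2:73580289-73580588 for Chrna1, chr11:69795888-69796187 for Chrnb1, chr11:70619145-70619444 for Chrne and chr5:43981750-43982049 for Fgfbp1, all on the minus strand. Chrna1 held 3 E-boxes, starting 92, 73 and 44 bases before the start site, and those at 92 and 44 have the core CAGCTG. Chrnb1 also held 3, at 119, 96 and 29 bases, and Chrne held 1, a CAGCTG at 138 bases. The N-box was found in the Chrne window, 76 bases before the start, and in none of the other windows of these genes. Fgfbp1 held 2 E-boxes, at 126 and 11 bases. Of 32851 promoter windows of the same length, 72.3% held CANNTG, 16.3% held CAGCTG and 14.9% held CCGGAA. Every match to CAGCTG is also a match to CANNTG, so these shares overlap, and a match of letters is not a binding site.

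Chrna1 encodes the α subunit, which carries the acetylcholine binding sites and is present as a pair in each receptor. It stood at 39.3, 6.98, 4.44 and 6.62 scaled FPKM in knockouts 1 to 4, against 4.72, 4.85, 4.35 and 4.92 in controls 1 to 4. Knockout 1 was 5.64-fold above the highest other library, knockouts 2 and 4 were above every control, and knockout 3 lay within the control range. The means were 14.3 ± 16.7 in knockouts and 4.71 ± 0.255 in controls (SD, n = 4 each), a log2 difference of 0.91 (SE 0.54). Without knockout 1 the knockout mean was 6.01 ± 1.37 (SD, n = 3) and the log2 difference 0.28 (SE 0.14). Chrna1 spans chromosome 2 from 73563281 to 73580338 (mm10, minus strand) and overlaps no other listed gene.

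Chrnb1, on chromosome 11 from 69784036 to 69795937, encodes the β subunit. Its levels were 48.3, 31.6, 33.8 and 35.5 scaled FPKM in knockouts, against 21.3, 25.3, 30.1 and 20.6 in controls. Every knockout was above the highest control, and the closest values were 31.6 in knockout 2 and 30.1 in control 3. The knockout mean was 1.53-fold the control mean (37.3 ± 7.51 in knockouts and 24.3 ± 4.35 in controls), with a log2 difference of 0.59 (SE 0.16). Leaving out knockout 1 gave 0.47 (SE 0.14).

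Chrnd encodes the δ subunit and lies on chromosome 1 from 87190597 to 87200070, upstream of Chrng. It had the lowest level of the 4 adult subunits, with 4.49, 2.30, 2.40 and 2.79 scaled FPKM in knockouts, against 1.66, 1.66, 1.23 and 1.20 in controls. All 4 knockouts were above all 4 controls. The mean in knockouts was 2.09-fold that in controls with all libraries and 1.74-fold without knockout 1. The log2 difference was 0.69 (SE 0.17) over all libraries and 0.53 (SE 0.11) without knockout 1.

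Chrne, on chromosome 11 from 70614883 to 70619194, encodes the ε subunit of the adult receptor. It stood at 26.1, 11.9, 13.6 and 10.3 scaled FPKM in knockouts and at 9.76, 14.4, 12.9 and 12.3 in controls. Knockout 1 was 1.82-fold the highest other library, and the other 3 knockouts lay within the control range. The log2 difference was 0.23 (SE 0.25) with all libraries and -0.04 (SE 0.14) without knockout 1, so its sign rests on that library. Chrne overlaps the listed gene 4930544D05Rik on the opposite strand, and the library kit is not stated to keep strand, so reads of the pair cannot be told apart. 4930544D05Rik was also highest in knockout 1, at 5.94 scaled FPKM, against 1.39 to 3.73 in the other 7 libraries.

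**Figure D1:**
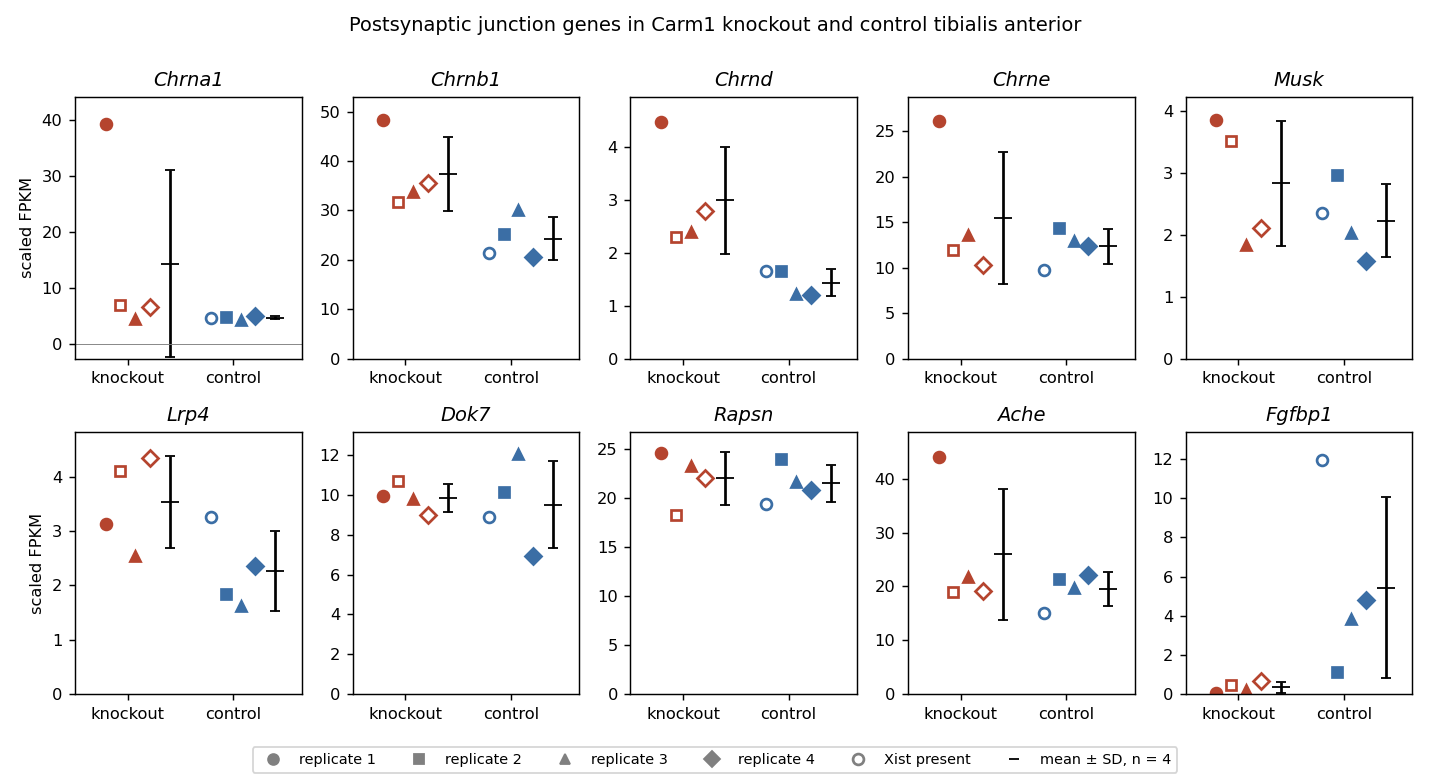
Scaled FPKM (vertical axes, linear, a separate scale per gene) of the 10 junction genes in the 4 knockout and 4 control libraries, with open symbols for the 3 libraries that hold Xist and bars for the mean ± SD (n = 4). Knockout 1 stands at 39.3 for Chrna1 and 44.2 for Ache, far above the rest, while Fgfbp1 is under 1 in every knockout and at 1.12 or more in every control.

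Summed over the 4 adult subunits, receptor transcripts reached 118 scaled FPKM in knockout 1 and 52.8, 54.2 and 55.2 in knockouts 2, 3 and 4, against 37.5, 46.2, 48.5 and 39.0 in controls. All 4 knockouts lay above all 4 controls, and the gap between knockout 2 and control 3 was the narrowest. Chrnb1, chosen on the same difference, was the largest part of this sum. It made up 40.9% in knockout 1 and 59.9% to 64.3% in the other knockouts, against 52.7% to 62.0% in controls. For knockouts 2, 3 and 4 the separation of the sums rests largely on Chrnb1 and does not show a rise of every subunit. The median log2 difference of the 4 subunits was 0.64, and 0.37 without knockout 1, against 0.00 in both cases for all genes tested. The mix of subunits differed between knockout 1 and the rest. Chrna1 made up 33.3% of the summed subunits in knockout 1 and 8.20% to 13.2% among knockouts 2, 3 and 4, against 8.96% to 12.6% in controls. Chrne made up 22.1% ± 2.63 of the sum in knockouts and 28.8% ± 2.95 in controls (SD, n = 4 each), and the share of knockout 3, 25.0%, was the closest to the lowest control share, 26.0%. Chrng, the fetal γ subunit, is not among the 10 genes and passed no filter for testing. As a share of Chrng plus Chrne it was 10.03% in knockout 1 and 1.19% to 2.0% among the remaining knockouts, against 0.926% to 2.43% in controls.

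**Figure D2:**
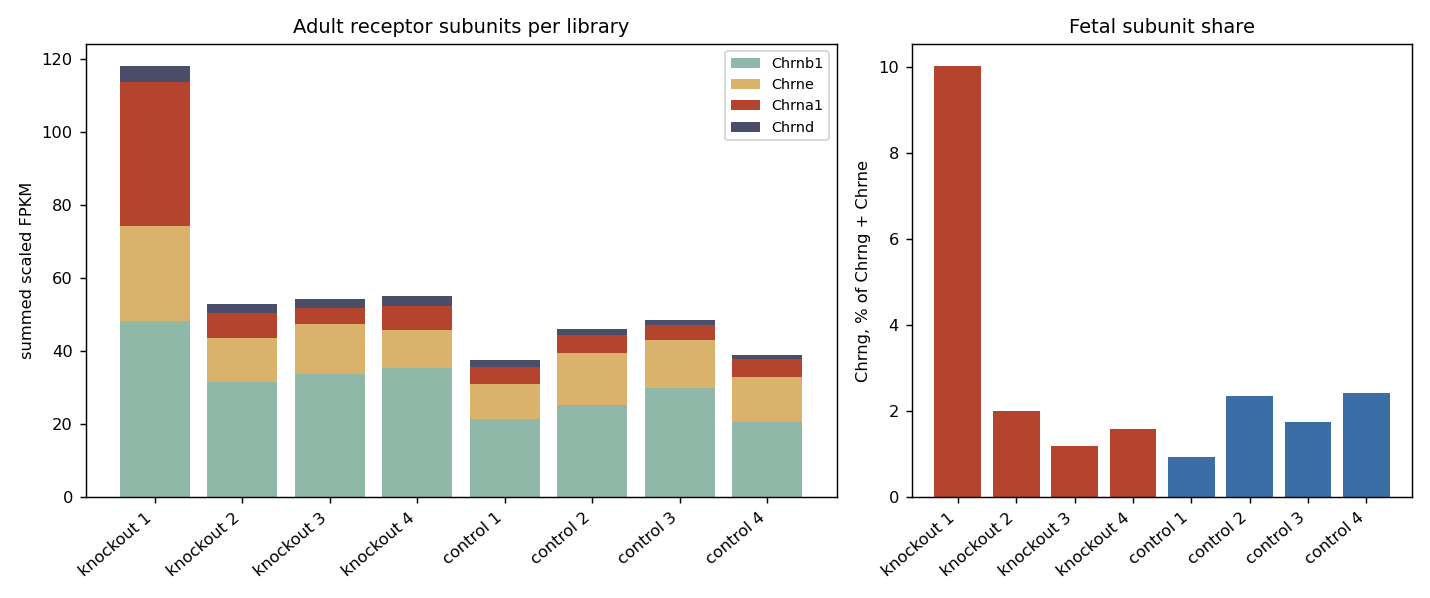
Left, stacked scaled FPKM of the adult receptor subunits in each library; right, Chrng as a percentage of Chrng plus Chrne. Knockout 1 has the tallest bar, 118 scaled FPKM, a Chrna1 share of 33.3% and a Chrng share of 10.03%, and the other 7 libraries have Chrng shares of at most 2.43%.

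Of the organizers, Lrp4, the agrin receptor on the muscle side, was higher on average in knockouts but with overlap. It had 3.13, 4.12, 2.54 and 4.36 scaled FPKM in knockouts, against 3.26, 1.84, 1.62 and 2.35 in controls, a log2 difference of 0.48 (SE 0.18). The 3 libraries with Xist held the 3 highest values, from 3.26 to 4.36, above the 1.62 to 3.13 of the 5 libraries without it, an arrangement shown by 11.4% of all genes tested. With presence of Xist as a covariate the log2 difference was 0.36 (SE 0.10), and among the libraries without Xist alone it was 0.39 (SE 0.15). The difference was smaller without knockouts 2 and 4, at 0.25 (SE 0.20), and with that covariate and without knockout 1, at 0.29 (SE 0.11). Myh2, the myosin heavy chain of type IIA fibres, followed the same split, with 782 to 1442 scaled FPKM in the libraries with Xist, against 119 to 173 in those without it. Myh4, the myosin of type IIB fibres, is listed above 0 only in knockouts 2 and 4. Its 0 elsewhere comes with a failed or low-data status and is not a measured level. Knockouts 2 and 4 had 2 genes each without the status OK, against 9 to 13 in the other libraries. Any part of Myh2 or Myh4 in the values of Lrp4, and of Ache and Chrne described next, was not tested. Lrp4 lies on chromosome 2 from 91457531 to 91513901 (mm10).

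Musk, the receptor kinase of the junction, ranged from 1.83 to 3.85 scaled FPKM in knockouts and from 1.58 to 2.96 in controls, with knockouts 1 and 2 at 3.85 and 3.52 and the other knockouts within the control range. Its log2 difference was 0.23 (SE 0.20), and 0.10 (SE 0.20) without knockout 1. Dok7, the adaptor that activates Musk from inside the fibre, had 9.87 ± 0.704 scaled FPKM in knockouts and 9.52 ± 2.17 in controls (SD, n = 4 each). All knockout values of Dok7, 8.98 to 10.7, lay within the control range of 6.93 to 12.1. Rapsn, the scaffold that clusters the receptors, had 22.0 ± 2.73 in knockouts and 21.5 ± 1.91 in controls. The log2 differences of Dok7 and Rapsn were 0.07 (SE 0.14) and 0.03 (SE 0.11). Each of these 2 genes differed by less than the spread between libraries, and the sign of Rapsn turned to -0.02 without knockout 1.

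Ache encodes acetylcholinesterase, which ends the signal by splitting acetylcholine in the cleft. It stood at 44.2, 18.9, 21.8 and 19.2 scaled FPKM in knockouts, against 15.1, 21.4, 19.8 and 22.1 in controls. Knockout 1 was 2.0-fold above the highest other library, and the other 3 knockouts were inside the control range. The log2 difference was 0.31 (SE 0.26) with all libraries and 0.04 (SE 0.14) without knockout 1. The gene, on chromosome 5 from 137288254 to 137294466, overlaps the listed microRNA gene Mir8116. Ache and Chrne were both lower in the 3 libraries with Xist than in the 5 without it, at 15.1 to 19.2 against 19.8 to 44.2 scaled FPKM for Ache and at 9.76 to 11.9 against 12.3 to 26.1 for Chrne, which held for 9.37% of all genes tested. With presence of Xist as a covariate the log2 differences of Ache and Chrne were 0.46 (SE 0.19) and 0.37 (SE 0.19), and with that covariate and without knockout 1 they were 0.17 (SE 0.09) and 0.10 (SE 0.10).

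Fgfbp1 encodes a secreted carrier protein that releases fibroblast growth factors from the matrix, and in mice it is known to help maintain the junction. It was listed at 0.0222, 0.444, 0.225 and 0.668 scaled FPKM in knockouts, against 12.0, 1.12, 3.83 and 4.82 in controls. Every knockout was below every control, but the controls spread over a wide range, and the highest knockout, 0.668, lay close to the lowest control, 1.12. Within each genotype the libraries with Xist were the highest, control 1 among controls and knockouts 2 and 4 among knockouts. The part of this split in Fgfbp1 was not tested. The mean was 0.340 ± 0.278 in knockouts and 5.43 ± 4.62 in controls (SD, n = 4 each), and the ratio of these means was 6.26%. On the log2 scale the difference was -2.0 (SE 0.46), the 9th lowest of 11096 genes, and between -2.44 and -1.57 when any 1 library was left out. At values under 1 FPKM this scale understates the change, and with a pseudocount of 0.1 in place of 1 the difference was -3.52. Knockout 1, which was highest for 7 of the other 9 genes, was the lowest library for Fgfbp1. The gene lies on chromosome 5 from 43978858 to 43981799, on the minus strand, and overlaps no other listed gene.

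**Figure D3:**
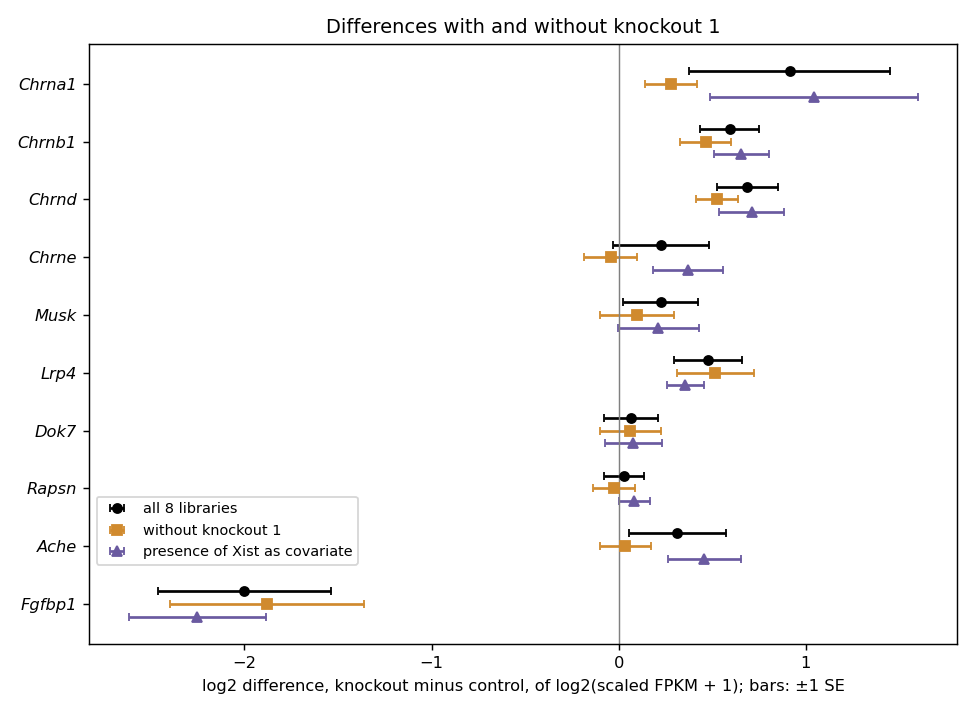
Log2 difference between knockout and control on the log2(scaled FPKM + 1) scale (horizontal axis) for each junction gene, with bars of 1 SE, for all 8 libraries, without knockout 1 and with presence of Xist as a covariate. Chrna1 drops to 0.28 without knockout 1, Chrne and Ache come close to 0, and Chrnb1, Chrnd, Lrp4 and Fgfbp1 keep most of their difference.

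The levels of the 10 genes were compared with each other, since FPKM is per length of transcript. Other differences between genes in how reads are counted, such as the overlap of Chrne with 4930544D05Rik, were not removed. From high to low the means over all 8 libraries were 30.8 for Chrnb1, 22.8 for Ache, 21.8 for Rapsn, 13.9 for Chrne, 9.69 for Dok7, 9.52 for Chrna1, 2.90 for Lrp4, 2.89 for Fgfbp1, 2.53 for Musk and 2.22 for Chrnd, in scaled FPKM. By means, Fgfbp1 was the lowest of the 10 in knockouts (0.340) and stood above Chrna1 in controls (5.43 against 4.71). The order in controls rests on control 1, with 12.0 for Fgfbp1 against 4.72 for Chrna1. In controls 2, 3 and 4 Fgfbp1 was below Chrna1. Chrna1 averaged 9.52 with knockout 1 and 5.27 ± 1.07 without it (SD, n = 7). Neighbours in this order were compared within libraries, with an exact sign-flip permutation test (2-sided) adjusted over the 9 pairs. The same libraries set the order, and so the pairs and their directions. The p-values do not allow for this and describe how steady each step was across libraries. Chrnb1 exceeded Ache by 0.44 on the log2 scale in 7 of 8 libraries, Rapsn exceeded Chrne by 0.66 in 7 of 8, Chrne exceeded Dok7 by 0.43 in 8 of 8 and Chrna1 exceeded Lrp4 by 1.05 in 8 of 8, each with an adjusted exact permutation p of 0.0352. The other 5 neighbouring pairs did not pass, with adjusted exact permutation p-values from 0.387 to 1. One of them, Dok7 over Chrna1, held in 7 of 8 libraries, all but knockout 1. With 7 libraries the smallest p is 0.0156, and 0 pairs passed without any 1 library other than knockout 1. Without knockout 1 the order changed and 3 pairs passed, Ache over Chrne, Chrne over Dok7 and Dok7 over Chrna1, each in 7 of 7 libraries with an adjusted exact permutation p of 0.0469. The spread within a genotype also differed between genes. The coefficient of variation of Chrna1 was 116% in knockouts and 5.41% in controls, that of Ache 46.9% and 16.0%, and that of Dok7 7.13% and 22.8%.

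Knockout 1 was at least 2-fold above the highest other library for 19 of 11096 genes, or 0.171%. Chrna1 and Ache were 2 of these 19, a description only, since a rise in knockouts was part of the choice of the 10 genes. The top of this list was Chrna9, a nicotinic receptor subunit best known from cochlear hair cells, at 16.0 scaled FPKM in knockout 1 and at most 1.67 in the others. It was followed by Sln, which encodes the calcium pump inhibitor sarcolipin, and by Cda, a cytidine deaminase, at 7.74-fold and 6.84-fold the highest other library. Ncam1, the adhesion molecule that spreads over denervated fibres, Cdkn1a, a cell cycle inhibitor, the slow and cardiac troponin T genes Tnnt1 and Tnnt2, the muscle gene Igfn1 and the tendon factor Scx were also among the 19. These genes are named after their values were seen. Markers of other tissues also differed in the same library, in both directions. The 4 adipocyte markers summed to 6.31 scaled FPKM in knockout 1 and to 0.631 to 1.37 in the other knockouts, against 1.42 to 3.12 in controls. The 4 tendon markers summed to 118 in knockout 1 and 46.7 to 63.2 in the other knockouts, against 33.6 to 83.2 in controls, while the 10 Schwann cell markers summed to 94.1 in knockout 1, within the 88.4 to 137 of the controls. The 5 endothelial markers summed to 137 in knockout 1, the lowest library, and to 147 to 186 in the other knockouts, against 162 to 202 in controls. The 10 muscle fibre markers summed to 62535 in knockout 1 and 92747 to 107695 in the other knockouts, against 62273 to 113205 in controls, sums that depend on which of the abundant genes are listed at 0. Their part in the receptor values was not tested.

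Genes known to respond to denervation or to muscle activity were examined as a list of 24, of which 17 were expressed highly enough to be tested. Of these, 0 rose and 1 fell in limma at an adjusted p under 0.05 over all genes (0.36% of all genes passed in either direction), and their median log2 difference was 0.29, and 0.07 without knockout 1. The gene that fell was Myh8, the perinatal myosin heavy chain, with 1.58, 0.975, 1.34 and 0.914 scaled FPKM in knockouts, against 4.82, 12.1, 8.66 and 5.02 in controls (log2 difference -1.90, SE 0.25, limma adjusted p = 0.0406). Myh3, the embryonic myosin heavy chain, was too low to be tested and had the opposite direction, with 0.866 to 1.59 scaled FPKM in knockouts and 0.505 to 0.721 in controls. The fall of Myh8 did not pass without control 3, control 4 or any 1 of the 4 knockouts, with limma adjusted p-values between 0.0635 and 0.0970. Myh8 met the filter on low values through the 4 controls, since knockouts 2 and 4 stood under 1 scaled FPKM. It thus entered the test through the group where it was higher, and its p-value is given as a description. Knockout 1 was the highest library for 6 of the 17 genes, against 15.7% of all genes tested, and at least 2-fold above the highest other library for Ncam1, Cdkn1a and Sln. Sln stood at 102 scaled FPKM in knockout 1 and 12.3 to 13.2 in the other knockouts, against 6.30 to 11.6 in controls, and did not pass (log2 difference 1.19, limma adjusted p = 0.468).

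The regulators of the receptor genes in this list did not pass either. Myog, the factor that binds E-boxes of receptor promoters, had 8.94, 4.31, 6.84 and 3.70 scaled FPKM in knockouts, against 4.50, 3.44, 6.41 and 3.62 in controls (log2 difference 0.30, limma adjusted p = 0.667). Hdac4, a class IIa deacetylase that carries the denervation signal to these promoters, had 4.55, 6.60, 4.34 and 5.31 in knockouts, against 4.28, 3.28, 3.36 and 2.91 in controls. The groups of Hdac4 did not overlap, by the narrow margin of 4.34 in knockout 3 over 4.28 in control 1, and it did not pass (log2 difference 0.47, limma adjusted p = 0.188). Of the 17 tested genes of this list, Hdac4 and Sln were higher without overlap and Myh8 lower, against 4.67% and 3.64% of all genes. Dach2, a repressor of Myog, was too low to be tested, with 0.0862 to 0.694 scaled FPKM in knockouts and 0.743 to 2.68 in controls. Gadd45a had 65.8 scaled FPKM in knockout 1 and 23.5 to 37.1 in the other knockouts, against 21.6 to 37.6 in controls, and Runx1, which is also induced by denervation, had 1.03 in knockout 1 and at most 0.456 in every other library.

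**Figure D4:**
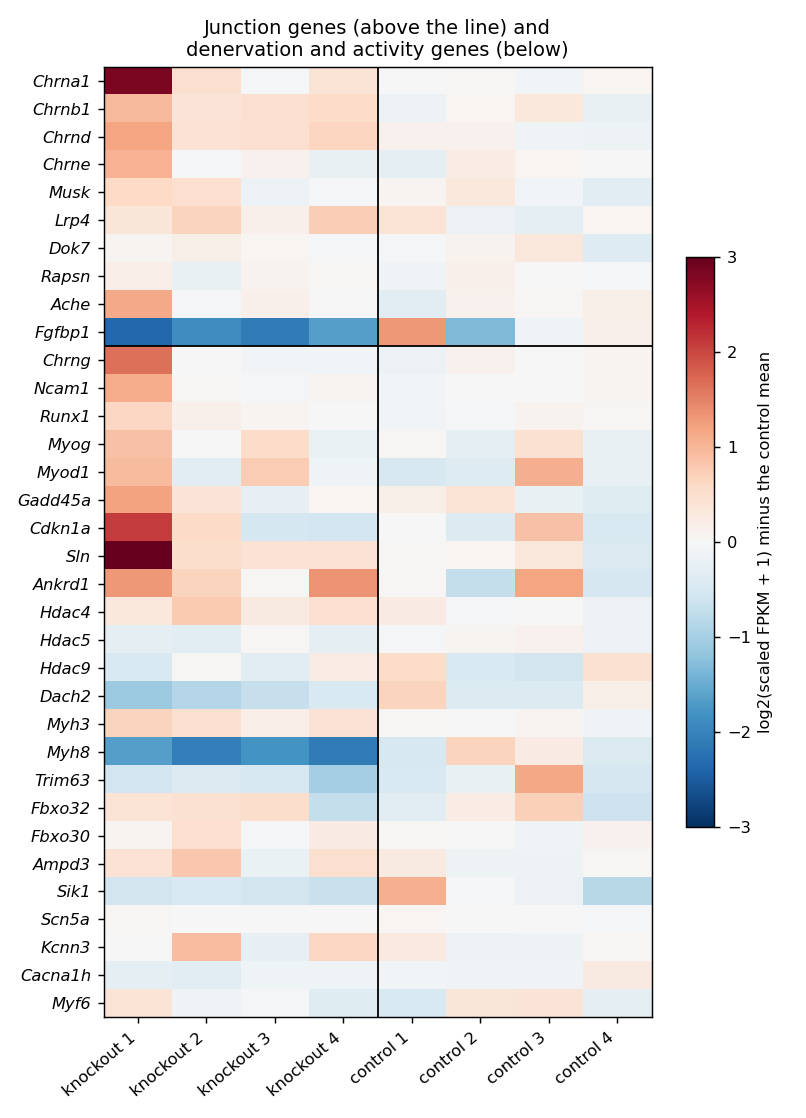
Log2(scaled FPKM + 1) of each gene minus its control mean (colour, red higher and blue lower, limited to ±3) in the 4 knockout and 4 control libraries, for the junction genes above the horizontal line and the 24 denervation and activity genes below it. The column of knockout 1 is red for Chrna1, Chrng, Cdkn1a and Sln, and the Fgfbp1 and Myh8 rows are blue in all 4 knockouts, and Fgfbp1 also in control 2.

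No gene in the other parts of the junction passed the test, and with 0.36% of all genes passing a count of 0 says little. Of 30 genes for agrin, neuregulin and Musk signalling and their transcription factors 25 were tested, and 0 rose and 0 fell in limma at an adjusted p under 0.05, with 2 at an unadjusted p under 0.05 (13.1% of all genes). Their median log2 difference was 0.01. The members with the smallest p were the kinase Abl1, with 11.7 ± 0.293 scaled FPKM in knockouts and 9.88 ± 1.04 in controls (log2 difference 0.23), the cytoskeletal linker Macf1, with 8.51 ± 0.515 and 7.32 ± 0.316 in the same order (0.19), and Gabpb1, a partner of Gabpa, with 3.61 ± 0.106 and 4.23 ± 0.477 (-0.18). Their limma adjusted p-values were 0.304, 0.304 and 0.396. Of the 25 tested genes, Abl1 and Macf1 were higher without overlap and Gabpb1 lower, against 4.67% and 3.64% of all genes. Agrn, the gene of agrin, which muscle also transcribes, had 6.11 ± 0.697 scaled FPKM in knockouts and 5.73 ± 0.402 in controls.

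Of 28 structural genes of the junction 24 were tested, 0 rose and 0 fell in limma, 1 had an unadjusted p under 0.05, and the median log2 difference was -0.09, with 5 positive and 19 negative. Over all genes 0.36% passed, 13.1% had an unadjusted p under 0.05 and 49.5% were positive. Lamb2, the synaptic laminin β chain, had 36.4 ± 2.92 scaled FPKM in knockouts and 42.9 ± 1.72 in controls (log2 difference -0.23, limma adjusted p = 0.251). It was lower without overlap, 1 of the 24 genes, against 3.64% of all genes. Colq, the collagen tail that holds acetylcholinesterase in the cleft, had 2.62 ± 0.610 in knockouts and 3.62 ± 0.913 in controls (-0.34, limma adjusted p = 0.443). Without knockout 1 the log2 difference was -0.44 for Colq and 0.04 for Ache, whose rise rested on that library. Lama4, another laminin chain of the synapse, had a log2 difference of -0.22 and a limma adjusted p of 0.468. Dtna, Sntb2, Scn4a, Plec and Dag1 were higher in each of the 3 libraries with Xist than in each of the 5 without it, 5 of the 24 genes against 11.4% of all genes tested, and 4 of the 24 were lower in each of the 3, against 9.37%.

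Growth factor genes related to Fgfbp1 did not pass either: of 12 genes 8 were tested, 0 rose and 0 fell in limma, 3 had an unadjusted p under 0.05, and the median log2 difference was -0.02. Over all genes 0.36% passed and 13.1% had an unadjusted p under 0.05. The receptor Fgfr1 had 9.37 ± 0.886 scaled FPKM in knockouts and 12.2 ± 1.69 in controls (log2 difference -0.35, limma adjusted p = 0.222). Fgfr4, another receptor, had 1.22 ± 0.209 in knockouts and 1.83 ± 0.342 in controls (-0.34, limma adjusted p = 0.231). The groups did not overlap for either receptor, 2 of the 8 genes, against 3.64% of all genes lower without overlap. Fgfbp3, a second gene of the binding protein family, had 2.01 ± 0.420 in knockouts and 1.41 ± 0.323 in controls (0.32, limma adjusted p = 0.338), opposite in sign to Fgfbp1. Of the factors that Fgfbp1 is known to carry, Fgf7 had 1.06 ± 0.142 in knockouts and 0.909 ± 0.304 in controls, and Fgf10 and Fgf22 were under 0.1 FPKM in every library. The growth factor gene Fgf2 was among the 8 tested and did not pass. Fgf2 and Fgfrl1, 2 of the 8, were higher in each library with Xist than in each without it, against 11.4% of all genes tested. The reverse held for 1 of the 8, against 9.37%.

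Genes of the motor nerve were low or at 0. Chat and Slc18a3, which make and load acetylcholine, were listed at 0 in all 8 libraries, and of 13 motor nerve genes 2 could be tested, Stmn2 and Uchl1. The summed level of the 13 genes lay between 8.07 and 11.2 scaled FPKM in knockouts and between 8.59 and 11.4 in controls.

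The genes with the pattern most like that of the receptor subunits, after removing each genotype's mean, were Sema3b, Sln, Cda, Tspo and Car3, with Pearson's r from 0.96 to 0.98 over 8 libraries among 6766 genes compared. These values are descriptions of a ranking and carry no test, and knockout 1 was the highest library for each of these 5 genes. Without knockouts 1 and 3, the libraries farthest from the median, r was between 0.77 and 0.89. For Fgfbp1 the 5 most alike were Lyrm7, Ccser2, Dusp14, Ccdc66 and Jund, with r from 0.94 to 0.97. Without controls 1 and 2 r was 0.87, 0.19, 0.88, 0.47 and 0.80 in the same order, so the likeness of Ccser2 and Ccdc66 rests on those libraries.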

How the data were processed

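Total RNA of 8 snap-frozen muscles was extracted with Trizol and made into TruSeq RNA v2 libraries, per the labels' protocols. STAR and Cufflinks were used against mm10, per the submitters' processing notes; versions and the annotation are not given in the sources used here. Each library has 1 deposited gene table of FPKM, with the columns of Cufflinks per the file headers. Without read counts the depth per gene is unknown, and count models were not applied. Tests left out 23 genes that lacked the status OK somewhere. The labels say that the 4 animals per genotype are biological replicates.

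Library factors were medians of ratios, taken from genes that reached 1 FPKM in all 8 libraries. The 11096 genes that reached 1 scaled FPKM in 4 or more libraries were tested as log2(scaled FPKM + 1), a scale that understates changes of low genes, with limma 3.58.1 in R 4.3.3 (eBayes with trend), Benjamini-Hochberg adjustment and a threshold of 0.05. The limma test was checked on 10 simulated data sets of this comparison with 11096 genes. There it recovered 95.3% of the log2 changes of 1 and 38.1% of those of 0.5, with 5.39% false calls. The simulated noise was normal, with each gene's variance averaged with the median variance, which narrows the spread of the most variable genes. Whether these shares hold for the measured libraries was not tested. Of the measured genes 40 passed, while Fgfbp1, with a log2 difference of -2.0, did not. Named were the 10 genes, Carm1, per list up to 3 called genes each way (with none called, the 3 of smallest p), and the 5 most alike in pattern of those averaging 5 scaled FPKM or more, clone-type and small RNA names skipped; further genes were named after their values were seen. The 10 genes and the lists were chosen with earlier results of these data known. Figures and tests other than limma used Python 3.11.15 with numpy 2.4.6, pandas 2.3.3 and matplotlib 3.10.9.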

Additional observations from a re-analysis of the deposited data

Results flagged for a closer look

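Knockout 1 lay far from the other 3 knockouts, by the gap to its nearest neighbour relative to the range of the group, for several junction genes. It held 39.3 scaled FPKM of Chrna1 and 44.2 of Ache, and 2.91 of Chrng, with Chrng at 10.03% of Chrng plus Chrne. Among the genes of denervation and activity it held 102 scaled FPKM of Sln, 4.26 of Ncam1 and 1.03 of Runx1. The same library held 26.7 scaled FPKM of the tendon factor Scx and a sum of 6.31 for the adipocyte markers. Control 1 lay far from the other 3 controls in Xist, at 20.1 scaled FPKM. Chance gives such a gap in about 1 in 20 groups of 4, and 74 groups were examined, of which 10 were marked. The 9 values from knockout 1 come from 1 library and are not separate observations. What sets knockout 1 apart was not tested.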

How the results depend on the processing

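On FPKM the depth per gene is unknown, and low genes such as Fgfbp1, Chrnd and Musk are the least precise. The 40 genes past the test over all genes became 223 with Xist as a covariate, 103 with array weights, 15 at a mean of at least 5 FPKM, 3 without a filter, 3 in the 5 libraries without Xist, 13 without knockouts 2 and 4 and, chosen after seeing the data, 21 with Xist as a covariate and without knockout 1; leaving out 1 library gave 2 to 27. With the replicate number as a block 0 genes passed (limma). Animals with the same number had correlations of -0.43, -0.19, 0.35 and 0.19 between their deviations from the genotype means, so the number was not taken as a pairing. Of the denervation list, 1 gene passed, and 0 passed in 6 of these settings (the block, no filter, the mean of 5 FPKM, the 5 libraries without Xist, without knockouts 2 and 4, Xist with knockout 1 left out); leaving out 1 library gave 0 to 1. The other 3 lists had 0 in every setting run. Carm1 kept its direction: -0.80 in the 5 libraries without Xist (exact permutation p = 0.1, the smallest possible), -0.75 without knockouts 2 and 4 (exact permutation p = 0.0667) and -0.94 in the block (limma adjusted p = 0.189). Of the level order 4 pairs passed, 0 in controls or knockouts alone, where no pair can pass, and 0 to 3 when 1 library was left out. The cause of these shifts was not tested. The median of the receptor subunits stayed between 0.33 and 0.79. Leaving out 1 library moved Cdkn1a between -0.17 (without knockout 1) and 0.72, and with Xist as a covariate and without knockout 1 Cdkn1a was -0.27 and Gadd45a -0.073.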
